A study of Mus musculus with 2 samples.

Results

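This account follows the 7 mouse genes of the MHC class II antigen presentation pathway and its master regulator (H2-Aa, H2-Ab1, H2-Eb1, H2-DMa, H2-DMb1, Cd74 and Ciita) in small-intestinal crypts with and without Lpcat3, a lysophospholipid acyltransferase. The genes were chosen by symbol, and each of the 16 probe sets whose annotation lists one of them is given, out of 45037 probe sets and 18194 named genes. The control pool came from Lpcat3 F/F mice, in which both alleles are floxed but intact. The knockout pool came from Lpcat3 F/F, Villin-CreERT2 mice, in which a tamoxifen-activated Cre under the Villin promoter is expressed in the intestinal epithelium and not in immune cells. The animals, aged 8 to 10 weeks whatever the genotype, received 1 mg of tamoxifen a day for 5 days, and crypts were isolated 2 weeks afterwards. Each genotype was a pool of RNA from 5 mice, read on 1 Affymetrix array per pool, so the comparison has no replicates and no test. Only the knockout mice carried Cre, so genotype, Cre, pool and array cannot be told apart.

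MHC class II molecules present peptides from endocytosed material to CD4 T cells. Each is a pair of an alpha and a beta chain that is assembled on the invariant chain, Cd74, and loaded with peptide in an acidic compartment with the help of the H2-DM heterodimer. Dendritic cells, macrophages and B cells express these genes constitutively, whereas intestinal epithelial cells do so in an inducible way, mainly in response to interferon gamma. In both settings transcription depends on Ciita, a coactivator that does not bind DNA itself and is recruited by factors sitting on the X and Y elements of class II promoters.

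The signals are linear MAS5 values, which cannot be compared in size between probe sets. A signal below 92.9, the median of all non-control values, was set to that floor before taking the log2 ratio of knockout over control, so a ratio with 1 side below the floor is a bound. Where a gene has several probe sets, the brightest one stands for it. Pairs of probe sets that read 1 gene put the SD of a log2 ratio at 0.28 (4582 genes), an error without the spread between mice. Lpcat3 itself read 4691 in control against 928 in knockout (log2 ratio -2.34). The epithelial part of the label was borne out by markers: all 14 epithelial genes, Epcam, Cdh1, Vil1 and keratins among them, were above the floor on both arrays. Of all measured genes, 8.75% were lower and 4.76% higher by at least 1.5-fold. By their brightest probe sets none of the 14 epithelial genes differed by as much (median log2 ratio 0.16). The other Fabp1 probe set was 1.66-fold higher (0.73). That list marks epithelium of crypt and villus alike. Of crypt genes, looked up afterwards, Olfm4 of stem cells (32027 against 21348), Lyz1 of Paneth cells (46003 against 38133) and the proliferation gene Mki67 (7217 against 5913) were well above the floor.

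The classical class II chains were lower in the knockout pool by every probe set that reads them. H2-Aa, the alpha chain of the I-A molecule, is read by 4 probe sets. Their signals were 7072 in control against 3009 in knockout, 6805 against 2127, 1389 against 303, and 334 against 103, which are log2 ratios of -1.23, -1.68, -2.20 and -1.70. All 4 thus had the knockout pool at less than 43% of control, and the brightest gave the smallest difference. H2-Ab1, the beta chain that pairs with H2-Aa, had signals of 2903 against 957, 1817 against 615, and 1391 against 271 by its 3 probe sets. These are log2 ratios of -1.60, -1.56 and -2.36, or 3.03-fold, 2.95-fold and 5.13-fold lower. H2-Eb1, the beta chain of the I-E molecule, is read by 1 probe set, at 3742 in control and 1595 in knockout (-1.23, 2.35-fold lower). The median over the 8 probe sets of these 3 chains was -1.64. Fewer cells that carry class II and less class II RNA per cell cannot be told apart in bulk RNA.

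Among the other chain genes of the region no such difference was measured. H2-Ea, the alpha chain partner of H2-Eb1, lay below the floor on both arrays by all of its probe sets (48.1 against 54.0 by the brightest), as did H2-Oa (41.2 against 72.3) and H2-Ob (32.6 against 68.9), which form a modulator of H2-DM. H2-Eb2 was 133 against 102 (-0.38).

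**Figure D1:**
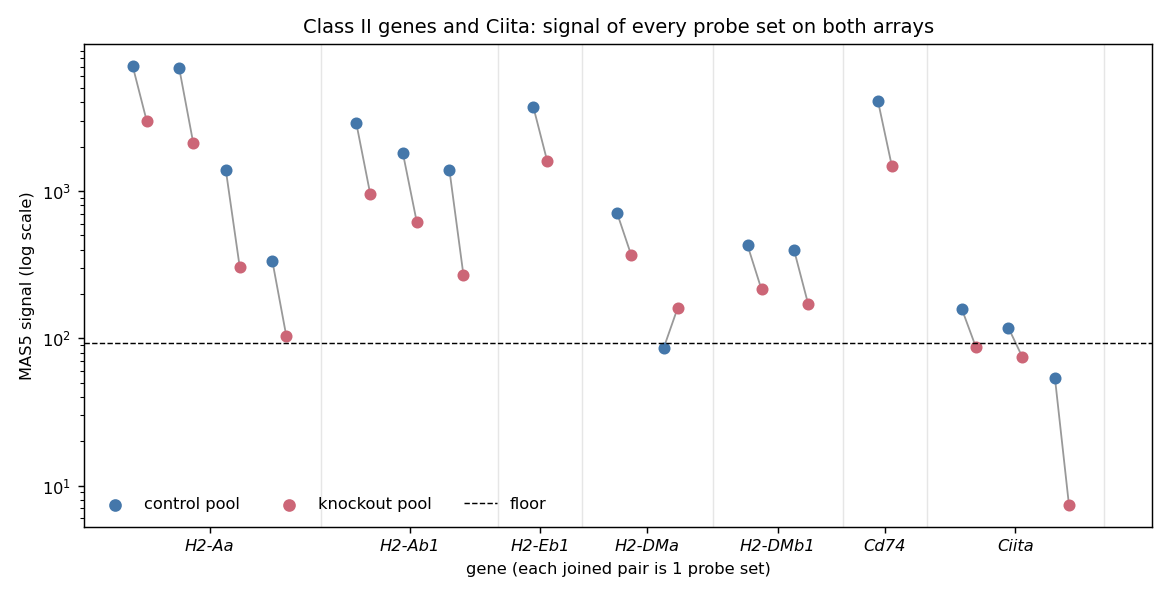
MAS5 signal on a log axis for every probe set of the 7 genes, with the control pool (blue) joined to the knockout pool (red) and the floor of 92.9 dashed. The 8 probe sets of H2-Aa, H2-Ab1 and H2-Eb1 slope down, as does that of Cd74, whereas 1 of the 2 for H2-DMa slopes up near the floor and the 3 for Ciita end below it.

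The promoters of these genes are known for an X and a Y element at a fixed spacing. RefSeq windows on GRCm38.p6, from 250 bases before to 50 after a gene start, were on hand for 4 of the 7 members (H2-Aa, H2-Eb1, H2-DMa and H2-DMb1). Stretches of 100 bases are shown for the 3 in which both elements were found, and for H2-DMb2, the paralog whose transcript shares probe sets with H2-DMb1. Capitals mark the letters GNAACT (from the X element, where N is any base) and TGATTGG (the Y element). The coordinates are chr17:34287834-34287933 on the minus strand for H2-Aa and, on the plus strand, chr17:34305746-34305845 for H2-Eb1, chr17:34153068-34153167 for H2-DMb1 and chr17:34145097-34145196 for H2-DMb2.
H2-Aa: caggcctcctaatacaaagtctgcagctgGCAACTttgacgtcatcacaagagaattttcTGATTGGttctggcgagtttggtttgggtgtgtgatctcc
H2-Eb1: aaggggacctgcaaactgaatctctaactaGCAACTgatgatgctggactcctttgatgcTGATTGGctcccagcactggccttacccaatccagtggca
H2-DMb1: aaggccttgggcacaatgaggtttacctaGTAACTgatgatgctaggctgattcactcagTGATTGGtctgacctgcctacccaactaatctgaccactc
H2-DMb2: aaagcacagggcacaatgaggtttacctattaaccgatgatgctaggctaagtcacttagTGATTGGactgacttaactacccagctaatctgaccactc

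In the first 3 sequences the X letters begin 31, 30 and 31 bases before the Y letters, and the Y letters begin 50, 61 and 63 bases before the gene start. The letters were chosen after reading these windows, so their presence there is built in. On either strand GNAACT occurs in 42.8% and TGATTGG in 7.82% of 32851 promoter windows, and the X letters followed by the Y letters within 60 bases on 1 strand in 0.426%. H2-DMb2 is identical to H2-DMb1 at 86 of the 100 positions but does not hold GNAACT. Neither of the 2 H2-DMa windows holds the Y letters.

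The genes that assemble and load class II were lower as well. Cd74, the invariant chain that guides class II chains to the endosome and blocks their groove, was 4084 in control and 1468 in knockout by its 1 probe set, a log2 ratio of -1.48 (2.78-fold lower). The beta chain of the peptide editor, H2-DMb1, is read by 2 probe sets that both also list H2-DMb2. They stood at 428 against 215 (-0.996) and 396 against 172 (-1.21), so the knockout pool was at 50.1% and 43.4% of control. The 3 probe sets annotated to H2-DMb2 alone did not go one way: their signals were 142 against 106 (-0.43), 94.7 against 136 (0.52) and 63.1 against 127 (at least 1.37-fold higher), all near the floor. H2-DMb1 has no probe set of its own here, so its part in the shared signal was not separately measured.

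H2-DMa, the alpha chain of the same editor, gave a split picture. Its brighter probe set was 708 in control and 370 in knockout (-0.94, 1.92-fold lower). Its other probe set, of a kind that can bind related transcripts, was 86.0 against 161, at least 1.73-fold higher, with the control side below the floor. A mean of both probe sets is -0.074, at which H2-DMa no longer counts as lower by 1.5-fold.

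Ciita, the coactivator on which the others depend, was dim on both arrays. Its 3 probe sets were at 158 against 87.6, 118 against 74.5, and 53.4 against 7.40. The knockout side lay below the floor in each, which makes the first at least 1.70-fold and the second at least 1.27-fold lower and leaves the third unmeasured. Ciita passed the floor only through the control array, where it is higher, so a ratio below 0 was the only one its values could give. With a pseudocount of 92.9 in place of the floor its log2 ratio was -0.48, and with the floor at the 70th percentile it was not measured.

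By their brightest probe sets the 6 genes measured on both arrays were lower by at least 1.5-fold, and 4 of them by at least 2-fold. Ciita, the seventh, is left out of this count because the floor fixed its direction. H2-DMb1 is counted, ordered and ranked here by a probe set that also lists H2-DMb2. Of all 11497 genes measured on at least 1 array, 8.75% were lower by at least 1.5-fold and 2.32% by at least 2-fold. That set is wider than the 10453 genes above the floor on both arrays, for which shares were not computed. Of the 16 member probe sets 12 were above the floor on both arrays, and these were lower by 1.5-fold or more, 10 of them by 2-fold or more. Of the 24011 probe sets measured on at least 1 array, again a wider set, 8.22% and 1.93% were lower by as much. The other 4 member probe sets were those of Ciita and the dim one of H2-DMa, which was higher by at least 1.5-fold as were 5.3% of all. The median log2 ratio was -1.23 over the 6 genes and also over all 7, a 2.35-fold difference, beside -0.042 over all measured genes. In order the log2 ratios ran from H2-Ab1 (-1.60) over Cd74 (-1.48), H2-Aa (-1.23), H2-Eb1 (-1.23) and H2-DMb1 (-0.996) to H2-DMa (-0.94), with Ciita, a bound, not placed. No 2 neighbours in that order were more than 0.24 apart, which is less than the probe error of 0.28, and the whole span was 0.66. Counted from the lowest ratio, H2-Ab1 ranked 51st, Cd74 75th, H2-Aa 124th, H2-Eb1 128th, H2-DMb1 268th and H2-DMa 321st of the 11497.

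**Figure D2:**
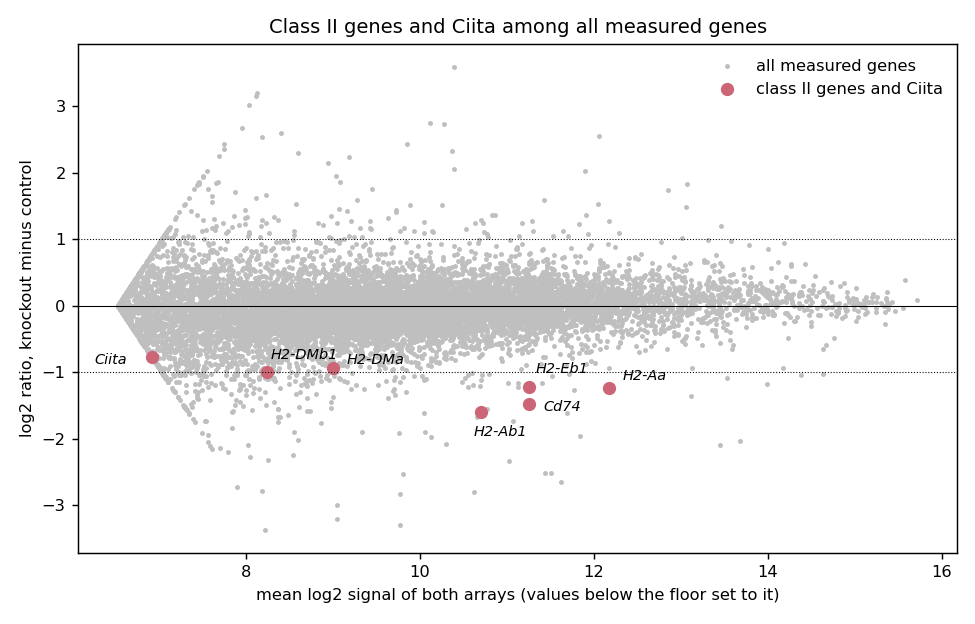
Log2 ratio of knockout over control against mean log2 signal for all 11497 measured genes (grey) and the 7 members (red), with dotted lines at 2-fold. H2-Aa, H2-Ab1, H2-Eb1 and Cd74 lie below the lower dotted line, H2-DMb1 and H2-DMa on or just above it, and Ciita on the edge that the floor sets for dim genes.

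The 5 H2 members lie close together on chromosome 17 in the order H2-DMa, H2-DMb1, H2-Ab1, H2-Aa and H2-Eb1, whereas Ciita is on chromosome 16 and Cd74 on chromosome 18. The region between them also holds class I processing genes, so ratios were read along it. Of the 6 other genes with a probe set between H2-DMa and H2-Eb1, 5 were measured, with a median log2 ratio of -0.43. Of these 5, 1 was lower by at least 1.5-fold (8.75% of all genes). That gene, Psmb8, encodes an immunoproteasome subunit and was 3433 in control against 1468 in knockout (-1.23). Its dimmer probe set was 126 against 76.8, at least 1.36-fold lower. Psmb9, another immunoproteasome subunit, was at -0.56 (3119 against 2123). The peptide transporter genes Tap1 (0.088) and Tap2 (-0.15), which sit between and beside these subunits, were within the probe error. Among the 10 genes with a probe set on each side of the members, 16 of 20 were measured. By their brightest probe sets none of the 16 was 1.5-fold lower or higher (8.75% and 4.76% of all genes). Their log2 ratios ran from -0.43 (Gpsm3) to 0.39 (Btnl2), with a median of -0.027.

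**Figure D3:**
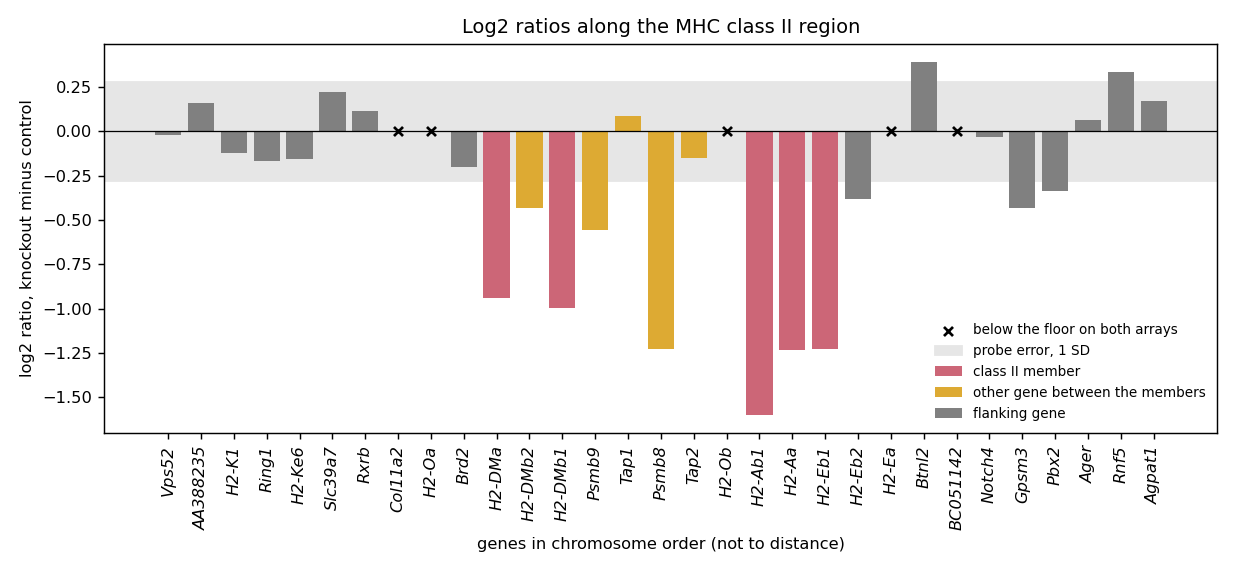
Log2 ratios of knockout over control for genes in chromosome order along the class II region, with members in red, other genes between them in yellow, flanking genes in grey and crosses for genes below the floor on both arrays. The 5 members and Psmb8 reach -0.94 or lower, while Tap1, Tap2 and most flanking genes lie within the grey band of 1 probe error SD.

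Psmb8 was also the gene with the ratio nearest to the member median among bright genes measured on each array, at a distance of 0.0039. The next were the tubulin gene Tuba1a (-1.22), Crebrf (-1.24), Gm19696 (-1.25) and Zfp367 (-1.25). Likeness here is the distance of 1 ratio over 2 arrays.

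Genes that act beside class II in the endosome differed by less, as read by their brightest probe sets. Of 11 processing and turnover genes with a probe set, 10 were measured, with a median of 0.012. By the same probe sets none of these 10 was 1.5-fold lower or higher (8.75% and 4.76% of all genes). The cathepsin gene Ctss, whose protease trims the invariant chain, was at -0.21 (5543 against 4786), and Ifi30, a thiol reductase of the loading compartment, at -0.024 (9356 against 9201). Ctse was lowest at -0.30, though its other probe set gave 1.23 (314 against 736), and the protease gene Lgmn was highest at 0.52, while Marchf8, a ubiquitin ligase that removes class II from the surface, was at 0.13. All 10 genes of factors that bind class II promoters or join Ciita there were measured (median -0.23). In the brightest probe set of each, none was 1.5-fold lower or higher (8.75% and 4.76% of all genes). A dimmer probe set of Crebbp was 1.63-fold lower (-0.71, 641 against 392), and another gave -0.50. The brightest of Crebbp gave -0.096, and the remaining one lay below the floor on both arrays. Rfx5, the large subunit of the complex on the X element, was at -0.42 (717 against 535), with its partners Rfxap at -0.13 and Rfxank at 0.19. Of the trimer that binds the Y element, Nfyb was at -0.44 by its brightest and at 0.47 by its other probe set, Nfya at -0.32 and Nfyc at 0.060, and the acetyltransferase genes Ep300 and Kat2b were at -0.43 each.

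The interferon gamma route that induces Ciita went several ways. Ifng itself lay below the floor on both arrays (42.5 against 12.9). Of 9 measured genes of the route, 1 was lower and 2 were higher by 1.5-fold or more (8.75% and 4.76% of all genes), with a median of -0.18. Usf1, which binds an inducible Ciita promoter, was at -0.68 (733 against 457; -0.42 by its other measured probe set). Irf1, which acts on the same promoter, was at -0.52 (3759 against 2620), and the receptor genes Ifngr1 and Ifngr2 at -0.23 and -0.40. The cytokine signalling inhibitor Socs3 (0.90; 0.93 and 1.04 by its other probe sets) and the cytokine gene Il18 (0.78) were higher. Of 12 other interferon gamma induced genes measured, 3 were lower and 1 was higher by 1.5-fold or more, against 8.75% and 4.76% of all genes. Their median of -0.20 became 0.17 with the floor at the 70th percentile. Gbp2, Gbp6 and Gbp8 passed the floor only through the control array and Cxcl10 only through the knockout array, which fixed their directions. Gbp6 and Gbp8 were among the 3 lower genes. The GTPase genes Gbp8 (at least 1.98-fold lower) and Iigp1 (-0.90) were lowest, and Ido1, which degrades tryptophan, was highest at 1.43 (350 against 942). Nlrc5, the relative of Ciita that drives class I genes, was at -0.51 (352 against 247).

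Class I presentation showed smaller differences. By their brightest probe sets 2 of 16 measured genes were at least 1.5-fold lower (8.75% of all genes). None of these 16 was higher by that much (4.76% of all genes), and the median was -0.15. The 2 lower genes were Psmb8 and Tapbp (-0.63 by both probe sets), the tapasin gene, while the chaperone genes Calr (0.31) and Canx (0.19, but -0.30 and -0.14 by its other probe sets) were highest. Dimmer probe sets passed 1.5-fold in both directions, such as 1 of H2-K1 (-0.65) and 1 of H2-D1 (1.00). The light chain B2m was at -0.18 (20860 against 18468). Of the costimulatory genes, Cd80, Cd86, Cd40, Cd274 and Pdcd1lg2 lay below the floor on both arrays, Icosl was at -0.57 and Cd83 at 0.099.

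Crypt preparations also hold immune cells, so markers of the cells that carry class II constitutively were read in the same pools. For dendritic cells 5 of 11 genes with a probe set were measured. The defining genes Flt3, Zbtb46, Xcr1, Cd209a, Ccr7 and Batf3 were below the floor on both arrays, Itgax was at -0.37 (149 against 115) and Irf8 at 0.084. Itgae, which intraepithelial T cells also express, was at -1.92, and the summed signal of the list was 4840 in control and 3672 in knockout with it, and 3151 and 3226 without it. Summed signals here follow the brightest probe sets of a list and include genes below the floor, so they do not measure cell content. Without Itgae most of the dendritic sum came from Irf8 (2303 against 2442). For macrophages and monocytes 8 of 14 genes were measured. Of these, 3 were at least 1.5-fold higher and none lower by that much (4.76% and 8.75% of all genes), with a median of 0.32. C1qa, 1 of those 3, and also C1qb and Cd68 passed the floor only through the knockout array, which fixed their direction as higher. The summed signal was 4489 against 4828, most of it from Lyz2 (3225 against 2477). Csf1r (121 against 700; other probe sets 1.21 and 0.65) and Mpeg1 (107 against 382) were highest, Cd14 (-0.40) and Lyz2 (-0.38) lowest, and Cx3cr1, Mrc1, Cd163, Fcgr1, Itgam and C1qc were below the floor on both arrays.

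B cell genes were also not lower as a list. Of 8 measured among 11 with a probe set, 2 were at least 1.5-fold higher (4.76% of all genes), Cd79b (125 against 277) and Ms4a1 (149 against 320). None of the 8 was lower by that much (8.75% of all genes), with Cd72 lowest at -0.55. Pax5, Cr2 and Fcrla were below the floor on both arrays. Blk, Fcer2a and Bank1 passed the floor only through the knockout array, so the floor fixed their direction as higher. With these genes included the median of the 8 was 0.33, and the summed signal of the list was 1049 against 1577. With the floor at the 70th percentile the medians of the macrophage and B cell lists were -0.057 and 0.0084. Plasma cell genes, of cells that have shut down class II, had a median of 0.77 over 8 measured of 9. Of these, 7 were at least 1.5-fold higher (4.76% of all genes), including Pou2af1, which passed the floor only through the knockout array. Jchain (2.33) and Ighm (1.95) were highest, Derl3 (0.011) and Sdc1 (0.61) lowest, and the summed signal was 7774 against 23904. By their next probe sets Sdc1 was at -0.031 and Ighm at 0.072, and a further one of Ighm gave 1.32.

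T and natural killer cell genes were lower together with class II, and by more. Of 14 measured among 16 with a probe set, 13 were at least 1.5-fold lower by their brightest probe sets (8.75% of all genes). None of the 14 was higher by these probe sets, with a median of -2.06 and a summed signal of 45759 in control against 9770 in knockout. Cd7, Cd247 and Il2rb passed the floor only through the control array, which fixed their direction as lower. Cd7 (at least 10.3-fold lower) and Klrd1 (-3.21) were lowest and Cd247 (139 against 68.6) and Il2rb (at least 1.60-fold lower) highest, and Cd4 and Cd8b1 were below the floor on both arrays. Mouse T cells do not usually carry class II. The part that any of these cells had in the class II result was not tested. Of the 7 type 3 innate lymphoid genes, only Ltb was measured (0.10), and of the blood genes only Hba-a2 (at least 1.64-fold lower).

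**Figure D4:**
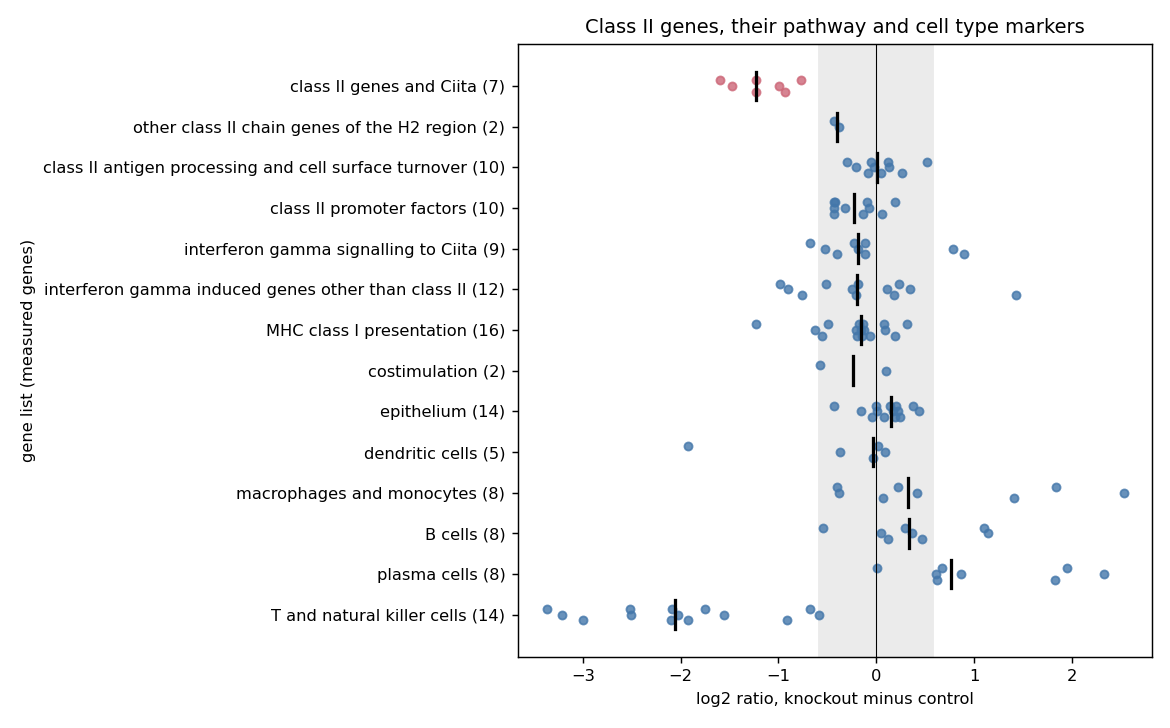
Log2 ratio of knockout over control for each measured gene (points) with the list median (black line) and a grey band of 1.5-fold, for the class II genes and Ciita (red) and for lists of their pathway and of cell types (blue; the number measured in brackets, lists with 1 measured gene left out). The class II median of -1.23 lies left of the band, as does only the T and natural killer list at -2.06, and the plasma cell median of 0.77 lies right of it.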

How the data were processed

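Pools of RNA from 5 mice per genotype were read on 1 Affymetrix array per pool. The authors deposited 1 linear signal intensity for each probe set and array; the submitters' processing notes name MAS5, with neither version nor options. Trimmed by 2% at either end, each column had a mean of 500.003, so the arrays were used as deposited. The table has 45101 probe sets, of which 64 array controls were set aside. The rest carried 1 gene symbol (34945), several (932) or none here (9160), from GEO's platform annotation, with 34741 symbols brought up to date by Entrez identifier from RefSeq's GRCm38.p6 gene table. Probe sets with several symbols were used only for members, which concerns H2-DMb1.

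The floor was the 50th percentile over both arrays without their control probe sets. Depth is limited by the number of arrays, and median signals were 95.4 (control) and 90.5 (knockout). Genes named in the text were all members and, from each list, any measured gene, with the 2 highest and 2 lowest of lists of 4 or more in most cases, plus genes below the floor named as such; Lpcat3; and the 5 genes nearest the member median. The chromosomal neighbours and promoter letters were chosen after values or windows had been seen. Members and lists were chosen with earlier results of these data known, so counts are descriptions. The ratio script was tested on simulated arrays. Python 3.11.15, pandas 2.3.3, statsmodels 0.14.6 and matplotlib 3.10.9 were used. Alternatives covered floor, pseudocount, scaling and choice of probe sets.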

Additional observations from a re-analysis of the deposited data

How the results depend on the processing

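No paired analysis was possible because there is 1 array for each genotype, and neither could be left out. Under the 9 alternatives for floor, pseudocount, scaling and probe sets, the median of the members with a value stayed between -1.25 and -1.18. Of the members with a value, 5 to 7 were at least 1.5-fold lower and 4 or 5 at least 2-fold lower. Ciita is included wherever it had a value, although in the main setting the floor fixed its direction. Not every member had a value under each alternative. Leaving Ciita aside, whose sign the floor fixes, 49 of 52 recomputed member values stayed within 1 probe error SD, and none of the 52 changed sign. Those that moved were H2-Aa (-1.70) and H2-DMa (-0.074) as means over probe sets and H2-DMb1 under a 70th percentile floor (-0.43, where its knockout signal falls below that floor). Ciita moved with the pseudocount (-0.48). Without _s_at and _x_at probe sets H2-Aa has no value, and with 1-symbol probe sets only, H2-DMb1 has none.

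The share of all genes at least 1.5-fold lower was 12.6% under a 30th percentile floor, 5.21% under the 70th percentile floor and 4.36% with the pseudocount, and that of genes at least 2-fold lower 4.20%, 1.17% and 0.709% in the same order. In the main setting the median was -0.41 for the other class II chains and -0.24 for costimulation, each over 2 measured genes. With the floor at the 30th percentile, these moved to 0.17 and -0.57. The medians of macrophages, B cells and plasma cells moved to 0.61, 0.66 and 1.25 under that floor. With the floor at the 70th percentile, medians were 0.17 for interferon gamma induced genes, -0.057 for macrophages, 0.0084 for B cells and 1.71 for plasma cells. With the pseudocount, the other class II chains were at 0.059 and T and natural killer genes at -1.58. The other class II chains were at -0.10 as means over probe sets and at 0.069 without _s_at and _x_at probe sets, where Sdc1 also changed sign (-0.031). The cause of these moves was not tested.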
